A study of Mus musculus with 12 samples.

Results

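The leukocyte markers described here are 34 genes whose transcripts identify blood-derived cells, measured in bulk RNA of peeled mouse urothelium. They were taken by gene symbol from a given list, by a rule that uses no measured value, and are 34 of 23337 genes in the count tables. The tables hold 33 of them under the listed symbol and 1 under an older one, Spi1 as Sfpi1. By lineage, 5 genes mark leukocytes in general, 14 macrophages and monocytes, 1 dendritic cells, 6 T cells, 3 B cells, 3 natural killer (NK) and other cytotoxic cells, and 2 mast cells. The study set mice labelled Stag2-WT (WT) against mice labelled Stag2-KO (KO), to learn what loss of Stag2, a gene for a subunit of the cohesin complex, does to transcripts of the bladder lining. All mice ate a TMX diet for the induction, and tissue was taken 1 week or 1 month after it began. Each of the 4 groups (WT 1 week, KO 1 week, WT 1 month, KO 1 month) held 3 libraries, 1 animal each by the animal numbers in the labels. The controls thus carry the TMX exposure as well, and the labels give neither the promoter that drives the recombination, nor the age, strain or sex of the animals.

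Tissue macrophages are resident phagocytes that depend on signalling through the growth factor receptor encoded by Csf1r and on the transcription factor PU.1, encoded by Spi1. They take up debris and antibody-coated particles through scavenger, lectin and Fc receptors, and several of these receptors signal through small adaptor chains such as Tyrobp and Fcer1g. T cells and B cells carry antigen receptors whose signalling chains are the CD3 and CD79 proteins, while NK cells, mast cells and dendritic cells are usually sparse in an epithelium at rest.

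PU.1 binds DNA that holds the letters GAGGAA, so the 250 bases before the start of each member were searched for it on both strands (TTCCTC on the other). RefSeq promoters of build GRCm38.p6 were at hand for 25 of the 34 members. The letters stood in 12 of the 25 windows (48.0%), against 7639 of 32851 windows of all promoters in the same table (23.3%). With only the first window of each gene the share was 6252 of 27025 (23.1%). Among the 10 macrophage members with a window, 5 held them, near the share of all 25 members with a window. They stood in 3 of 4 T cell, 2 of 4 general leukocyte, 1 of 1 B cell and 1 of 2 mast cell windows. The NK and cytotoxic windows (0 of 3) and the dendritic window (0 of 1) lacked them. Below are 4 macrophage members, each read 5′ to 3′ on the strand of its gene with GAGGAA or TTCCTC in capitals: the lectin receptor gene that fell at 1 month, 2 further members with several matches and 1 without any. The window of Clec4a1 is chr6:122921598-122921847, that of Mrc1 chr2:14229164-14229413, that of Itgam chr7:128062390-128062639 and that of Cd163 chr6:124304401-124304650, all on the + strand.
Clec4a1: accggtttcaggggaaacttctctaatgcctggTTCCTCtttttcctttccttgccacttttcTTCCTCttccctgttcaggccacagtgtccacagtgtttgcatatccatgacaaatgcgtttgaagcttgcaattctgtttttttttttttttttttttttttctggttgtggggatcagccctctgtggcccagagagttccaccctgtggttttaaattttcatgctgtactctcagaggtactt
Mrc1: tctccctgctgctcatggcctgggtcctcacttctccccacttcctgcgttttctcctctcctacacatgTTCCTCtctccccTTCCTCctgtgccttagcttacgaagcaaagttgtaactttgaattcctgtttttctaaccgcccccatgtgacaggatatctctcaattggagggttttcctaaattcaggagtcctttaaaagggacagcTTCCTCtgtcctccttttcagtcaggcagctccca
Itgam: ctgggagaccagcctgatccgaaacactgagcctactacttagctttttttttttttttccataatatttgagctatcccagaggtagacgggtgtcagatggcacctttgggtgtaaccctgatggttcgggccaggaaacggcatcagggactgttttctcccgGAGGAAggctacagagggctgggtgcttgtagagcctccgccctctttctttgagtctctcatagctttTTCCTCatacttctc
Cd163: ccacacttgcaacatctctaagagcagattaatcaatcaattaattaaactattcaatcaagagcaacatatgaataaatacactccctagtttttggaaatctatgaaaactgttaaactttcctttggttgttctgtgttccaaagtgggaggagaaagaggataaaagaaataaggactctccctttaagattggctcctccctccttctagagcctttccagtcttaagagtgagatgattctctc
The matches began 217 and 187 bases before the start of Clec4a1, 180, 167 and 35 before that of Mrc1, and 84 and 15 before that of Itgam. A match is a description of the letters, and binding was not measured.

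Total counts per library ran from 5580961 to 9497088, and 3 counts, taken as the floor of detection, corresponded to 0.305 to 0.632 CPM (counts relative to the library total, scaled by edgeR's TMM method). The tissue label was checked against 12 urothelial genes, among them 5 uroplakin genes, whose summed level was between 10490 and 31660 CPM in every library, with none at 0 throughout a group. Stag2 was lower in each KO library than in every WT library of its time, with log2 fold changes of -0.89 at 1 week and -0.88 at 1 month (edgeR quasi-likelihood test, Benjamini-Hochberg (BH) adjusted p 0.198 and 0.0507). KO replicate 3 of 1 week stood apart: its Spearman correlations across genes with the other libraries of that time were 0.746 to 0.842. Its urothelial genes were uneven. Upk3a had 163 CPM there against 1260 to 2535 CPM in the other libraries of 1 week, and Upk1b 136 against 416 to 1041 CPM. Upk1a, at 6393 CPM, was the highest of that time. The KO libraries of 1 week carried Xist (6392 to 10406 counts) and at most 4 counts of Y-linked genes (4 genes summed), and the WT libraries at most 13 and at least 1360. Genotype and sex of the animal therefore cannot be told apart at 1 week. At 1 month KO replicate 3 was the 1 library with Xist. The labels put all libraries of 1 week in batch 1, replicates 1 and 2 of both genotypes at 1 month in batch 2 and replicate 3 of both in batch 3, so time and batch cannot be told apart either.

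Summed macrophage and monocyte transcripts were higher in KO than in WT at 1 week and lower at 1 month. The T cell and mast cell sums overlapped between the genotypes at both times. In TMM-scaled CPM the general leukocyte sum, the B cell sum and Itgax, the 1 dendritic cell member, overlapped at 1 week. They were lower in every KO library at 1 month. The general leukocyte sums then came as near as 104.8 CPM in KO replicate 3 and 107.4 CPM in WT replicate 3. Before scaling these were 691 of 5758437 and 721 of 6626132 counts, a larger share in the KO library. The B cell sums held at most 9 counts then. The NK and cytotoxic sum was lower in every KO library at 1 week and overlapped at 1 month. The 14 macrophage markers summed to 138 ± 35.9 CPM (SD, n = 3) in WT mice and 308 ± 95.6 CPM in KO mice at 1 week, and to 547 ± 131 CPM in WT mice and 263 ± 27.1 CPM in KO mice at 1 month. Neither pair of groups overlapped: the KO libraries had 223, 289 and 412 CPM at 1 week against 115 to 180 in WT, and 244, 250 and 294 CPM at 1 month against 396 to 634 in WT. Csf1r made up much of these sums. Without it the other 13 genes summed to 102 ± 24.0 CPM in WT mice and 201 ± 48.0 CPM in KO mice at 1 week, and to 220.4 ± 13.7 and 121 ± 18.1 CPM at 1 month, and again the groups did not overlap. In bulk RNA, fewer macrophages and less RNA per macrophage cannot be told apart. The 5 general leukocyte markers summed to 108 ± 25.2 CPM in WT mice and 108 ± 16.6 CPM in KO mice at 1 week, and to 117 ± 9.47 and 87.0 ± 23.4 CPM at 1 month. The equal sums at 1 week hid opposite changes, with 3 of these genes higher in KO and 2 lower. Lcp1, the largest part of the WT sum, had a mean of 61.2 CPM in WT mice and 31.1 CPM in KO mice. Ptprc had 21.4 and 38.7 CPM. The T cell sum was 4.30 ± 0.961 CPM in WT mice and 4.65 ± 2.16 CPM in KO mice at 1 week, and 6.90 ± 2.27 and 5.61 ± 0.564 CPM at 1 month.

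**Figure D1:**
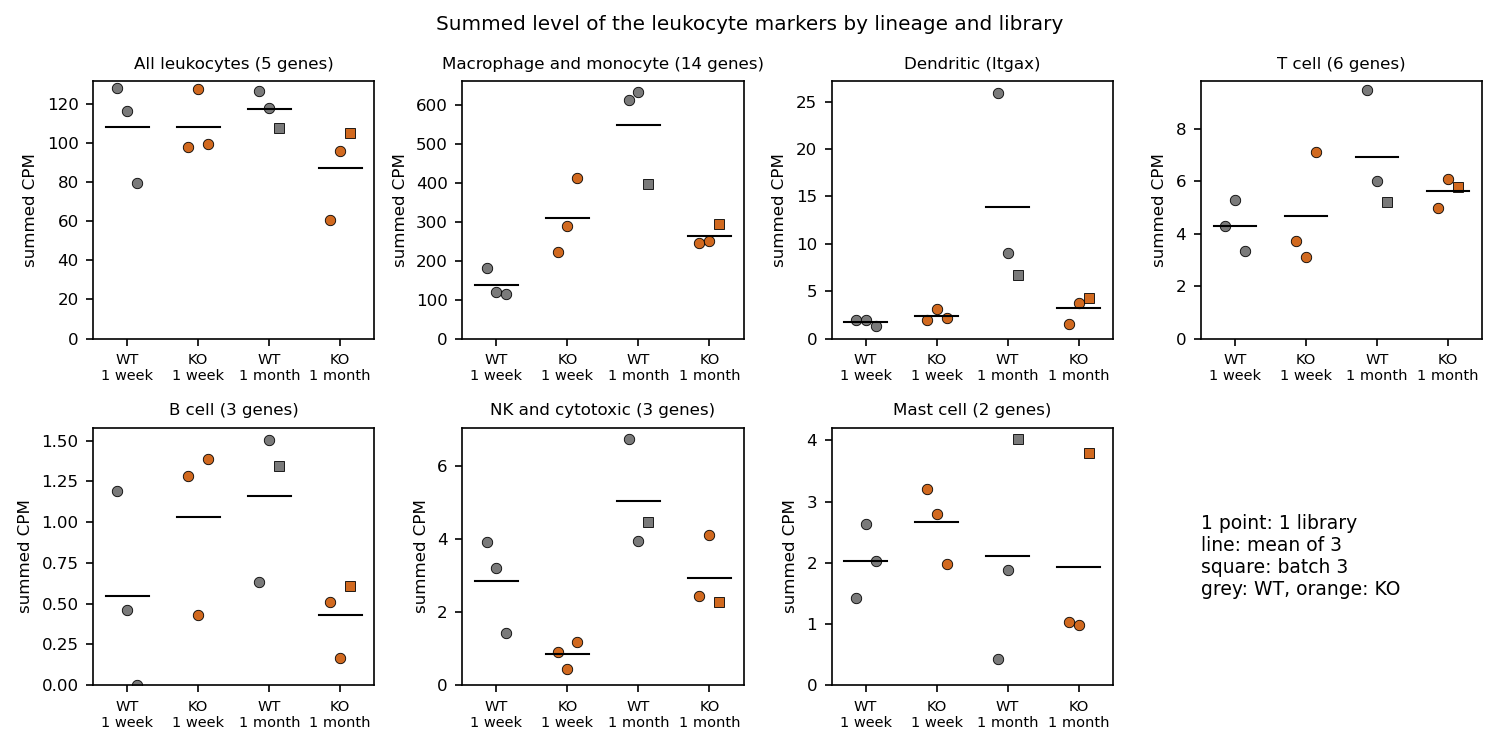
Summed TMM-scaled CPM of the leukocyte markers of each lineage (vertical axis) in the 12 libraries, grouped by genotype and time, with 1 point per library, a line at the mean of 3 and squares for batch 3. The KO macrophage sums lie above every WT library at 1 week (223 to 412 CPM against 115 to 180) and below every WT library at 1 month (244 to 294 CPM against 396 to 634), while the other panels overlap at 1 or both times.

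The first comparison asked which members differed between KO and WT at 1 week. The filter on low counts left 21 of the 34 members, of which 16 were higher (51.5% of all genes were) and 5 lower (48.5%) in KO, with a median log2 fold change of 0.62 against 0.02 over all 12754 genes tested. By edgeR's quasi-likelihood test with Benjamini-Hochberg adjustment, 0 members passed an adjusted p of 0.05, where 0.0627% of all genes did (0.0157% higher and 0.047% lower), and the smallest adjusted p among members was 0.138. At an unadjusted p under 0.05 there were 8 members, where 15.5% of all genes had such a p. DESeq2 called 4 members, Cd163, Clec4a1, Csf1r and Mrc1, all higher, where it called 4.67% of all genes. In 6 members every KO library was above every WT library, a pattern shown by 13.2% of all genes, and in 3 members every KO library was below (13.4%).

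The same question was asked for 1 month, with batch as a covariate. Of 20 members tested, 17 were lower and 3 higher in KO, with a median log2 fold change of -0.92 against -0.01 over all 12139 genes, of which 50.4% were lower. Csf1r and Clec4a1 fell, so that 2 members were called, both lower, where 2.22% of all genes were called in either direction, 1.22% as lower and 0.997% as higher. An unadjusted p under 0.05 was reached by 15 members and by 21.5% of all genes. In TMM-scaled CPM, all KO libraries were below all WT libraries in 11 members, against 6.71% of all genes, and in 0 members were they all above (6.42%). As a share of the library total without that scaling, Fcer1g, Fcgr3, Mrc1 and Ncf1 overlapped between the genotypes. Fcer1g, for one, had 181 of 5758437 counts in KO replicate 3 and 203 of 6626132 in WT replicate 3.

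**Figure D2:**
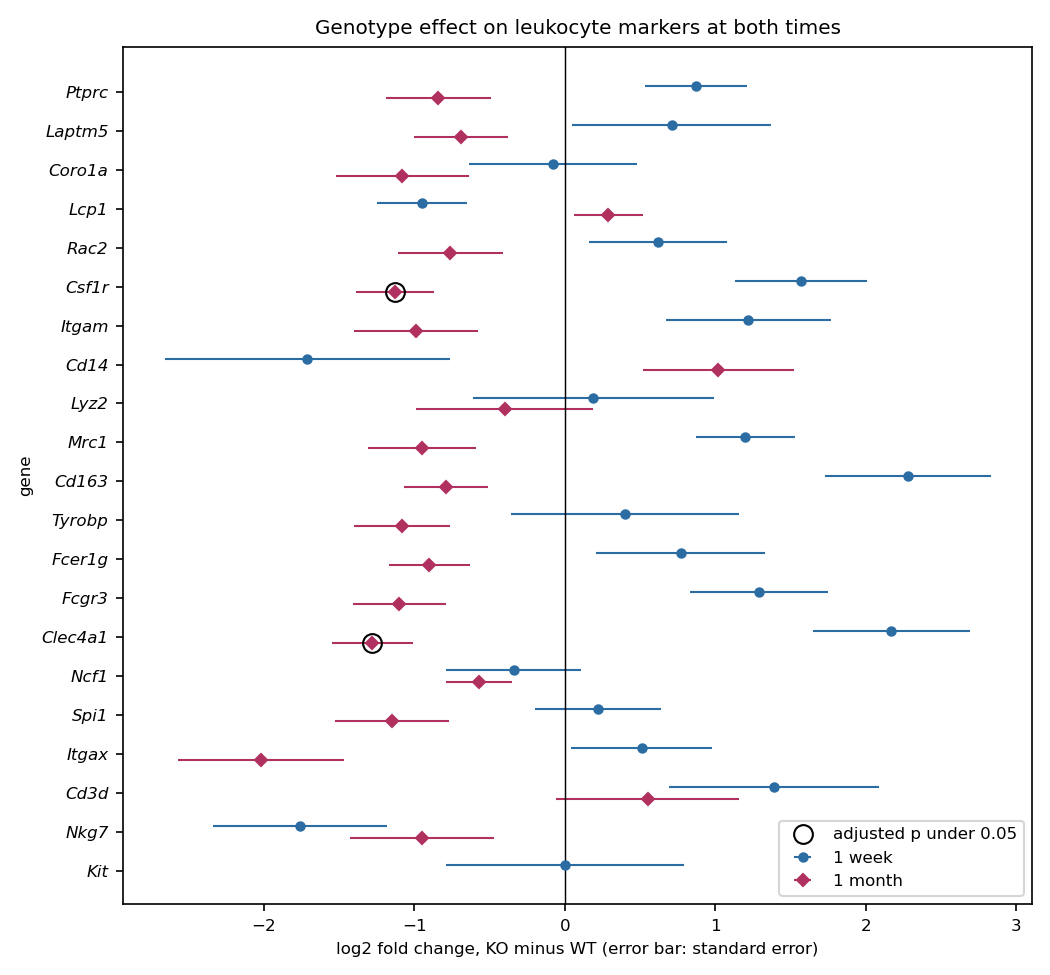
Log2 fold change, KO minus WT, with its standard error (horizontal axis) for the 21 members tested at 1 week (blue circles) and the 20 tested at 1 month (red diamonds); rings mark an adjusted p under 0.05. Most blue points lie right of 0 and most red points left of it, and the 2 rings stand at Csf1r (-1.13) and Clec4a1 (-1.28) at 1 month.

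Among the general leukocyte markers, Ptprc encodes CD45, the tyrosine phosphatase on the surface of nearly all leukocytes. Its level was 24.5, 18.2 and 21.5 CPM in WT mice and 29.6, 31.2 and 55.2 CPM in KO mice at 1 week. All KO libraries were above all WT libraries, KO replicate 3 the most. The log2 fold change was 0.87 (SE 0.34, BH-adjusted edgeR p 0.288), and 0.49 without KO replicate 3. At 1 month Ptprc had 21.7, 33.1 and 9.69 CPM in WT mice and 8.19, 14.8 and 10.01 CPM in KO mice. The groups overlapped because WT replicate 3, of batch 3, was low, and the log2 fold change was -0.84 (SE 0.35, BH-adjusted edgeR p 0.187). Laptm5, a lysosomal membrane protein of blood cells, ran from 9.75 to 27.9 CPM in WT mice and from 8.51 to 50.7 CPM in KO mice at 1 week, and from 30.4 to 49.3 and 14.7 to 31.9 CPM at 1 month, overlapping each time. Rac2, a small GTPase of blood cells, overlapped too, with log2 fold changes of 0.62 and -0.76.

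The actin-binding members differed from Ptprc at 1 week. Lcp1, which encodes the actin-bundling protein L-plastin, had 67.3, 72.7 and 43.6 CPM in WT mice and 32.5, 32.7 and 28.1 CPM in KO mice at 1 week. Every KO library was below every WT library, and the log2 fold change was -0.95 (SE 0.30, BH-adjusted edgeR p 0.206). At 1 month Lcp1 had 25.5, 23.5 and 55.1 CPM in WT mice and 29.3, 37.5 and 53.7 CPM in KO mice, with the highest library of each genotype in batch 3 and a log2 fold change of 0.29. Coro1a, a coronin that binds actin in leukocytes, had 3.45, 2.41 and 1.93 CPM in WT mice and 3.07, 3.02 and 0.989 CPM in KO mice at 1 week, which overlapped. Coro1a at 1 month had 6.74, 4.13 and 4.77 CPM in WT mice and 1.79, 3.29 and 2.28 CPM in KO mice. The groups did not overlap then, and the log2 fold change was -1.08 (SE 0.44, BH-adjusted edgeR p 0.185).

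Spi1, the gene of PU.1, did not separate the genotypes at 1 week, with 3.45, 2.64 and 2.94 CPM in WT mice and 3.20, 4.31 and 2.77 CPM in KO mice. The levels at 1 month were 7.58, 9.95 and 7.003 CPM in WT mice and 5.25, 3.95 and 2.12 CPM in KO mice. All 3 KO libraries were then below all WT libraries, and the log2 fold change was -1.15 (SE 0.38, BH-adjusted edgeR p 0.112).

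Csf1r, the receptor for macrophage colony-stimulating factor, had 50.9, 26.1 and 32.3 CPM in WT mice and 74.5, 76.8 and 169 CPM in KO mice at 1 week. The groups did not overlap, and KO replicate 3 was the highest of the 6 libraries. The log2 fold change was 1.57 (SE 0.44, BH-adjusted edgeR p 0.172), and 1.04 without that library (adjusted p 0.106). At 1 month Csf1r had 384, 404.5 and 192 CPM in WT mice and 144, 122 and 159 CPM in KO mice. All KO libraries were below all WT libraries, and WT replicate 3 of batch 3 lay nearer to the KO libraries than to its own group. Csf1r fell by 1.13 on the log2 scale (SE 0.26, BH-adjusted edgeR p 0.0429).

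The lectin and scavenger receptors included the widest differences among the members tested at 1 week. Clec4a1, a C-type lectin receptor of myeloid cells on chromosome 6 whose promoter is printed above, had 4.64, 2.75 and 1.83 CPM in WT mice and 10.1, 10.2 and 20.8 CPM in KO mice at 1 week. Each KO library exceeded each WT library, with a log2 fold change of 2.17 (SE 0.52, BH-adjusted edgeR p 0.138) and of 1.71 without KO replicate 3 (adjusted p 0.0799). At 1 month it had 23.0, 25.9 and 23.4 CPM in WT mice and 11.0, 6.91 and 11.7 CPM in KO mice. The WT libraries lay close together across both batches and well above the KO libraries, and Clec4a1 fell by 1.28 on the log2 scale (SE 0.27, BH-adjusted edgeR p 0.0325).

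Cd163, the scavenger receptor for haptoglobin-bound haemoglobin, had 12.1, 7.68 and 8.43 CPM in WT mice and 21.9, 30.7 and 82.9 CPM in KO mice at 1 week. The genotypes did not overlap, and KO replicate 3 was the highest library. Its log2 fold change of 2.28 (SE 0.55, BH-adjusted edgeR p 0.138) became 1.47 without that library (adjusted p 0.0543). In the samples of 1 month Cd163 had 32.4, 35.1 and 24.3 CPM in WT mice and 13.2, 27.5 and 12.7 CPM in KO mice, where KO replicate 2 overlapped WT replicate 3 and the log2 fold change was -0.79 (SE 0.28, BH-adjusted edgeR p 0.138).

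Mrc1, the mannose receptor CD206, had 37.1, 28.2 and 21.0 CPM in WT mice and 51.0, 62.7 and 81.9 CPM in KO mice at 1 week, again without overlap (log2 fold change 1.20, SE 0.33, BH-adjusted edgeR p 0.170). At 1 month its 3 WT libraries had 19.4, 17.5 and 19.4 CPM and its KO libraries 4.09, 12.01 and 13.8 CPM. The KO libraries were all lower and spread more widely than WT, with a log2 fold change of -0.95 (SE 0.36, BH-adjusted edgeR p 0.158). Cd14, the co-receptor for bacterial lipopolysaccharide, went the other way. It had 4.40, 9.86 and 4.06 CPM in WT mice and 1.79, 3.45 and 0 CPM in KO mice at 1 week, with all KO libraries below WT and a log2 fold change of -1.71 (SE 0.95, BH-adjusted edgeR p 0.422). By 1 month Cd14 had 1.05, 0.939 and 4.92 CPM in WT mice and 3.58, 1.32 and 7.89 CPM in KO mice, overlapping, with the highest library of each genotype in batch 3.

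**Figure D3:**
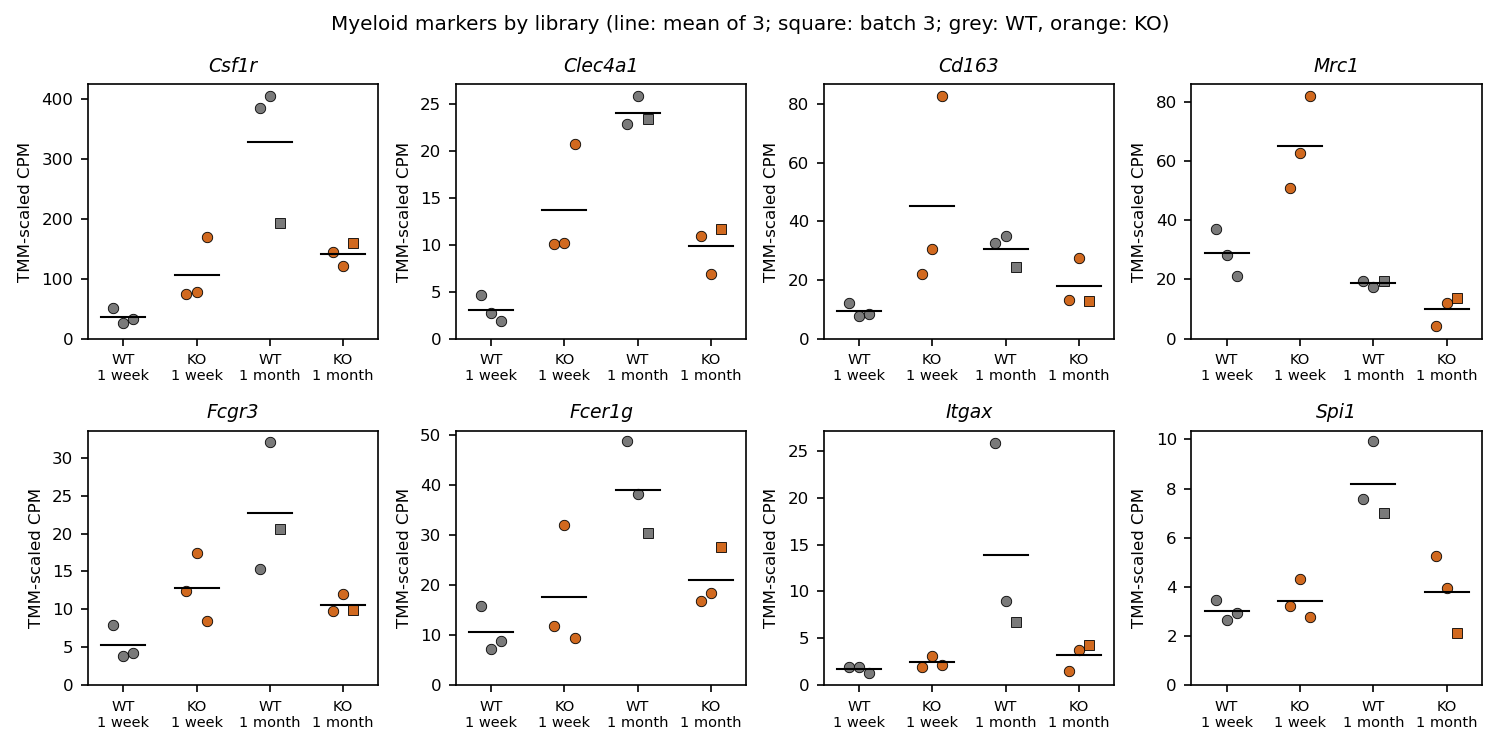
TMM-scaled CPM (vertical axis) of 8 myeloid members in each of the 12 libraries by genotype and time, with lines at the mean of 3 and squares for batch 3. In the panels of Csf1r and Clec4a1 the KO libraries lie above WT at 1 week and below WT at 1 month, while the libraries of Itgax and Spi1 overlap at 1 week and do not at 1 month.

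Of the Fc receptor genes, Fcgr3 encodes a low-affinity receptor for immunoglobulin G and had 7.97, 3.90 and 4.16 CPM in WT mice and 12.4, 17.4 and 8.51 CPM in KO mice at 1 week. The KO libraries were all higher, by a log2 fold change of 1.29 (SE 0.46, BH-adjusted edgeR p 0.252). At 1 month Fcgr3 had 15.4, 32.1 and 20.6 CPM in WT mice and 9.72, 12.01 and 9.86 CPM in KO mice. The KO libraries were all lower, with a log2 fold change of -1.10 (SE 0.31, BH-adjusted edgeR p 0.0757), which passed without WT replicate 1, at -1.36 (adjusted p 0.0495). Without WT replicate 2 the log2 fold change was -0.74 (adjusted p 0.370), and without KO replicate 1 or 2 it was -0.96 and -1.19 (0.193 and 0.173). Dropping the batch term gave an adjusted p of 0.484. The inhibitory receptor gene Fcgr2b had at most 29 counts and was at or under the floor in 6 of 12 libraries, so it was not tested at either time. Fcgr2b, Fcgr3 and Fcer1g lie near each other on chromosome 1. Fcgr2b and Fcgr3 are close receptor copies, and reads may have been split between these copies.

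In TMM-scaled CPM the adaptor chains separated the genotypes at 1 month. Fcer1g, the shared gamma chain of several Fc receptors, had 15.7, 7.22 and 8.73 CPM in WT mice and 11.8, 31.9 and 9.30 CPM in KO mice at 1 week, which overlapped. The samples of 1 month had 48.6, 38.1 and 30.3 CPM in WT mice and 16.8, 18.4 and 27.5 CPM in KO mice, with the nearest pair of libraries both in batch 3. The log2 fold change was -0.90 (SE 0.27, BH-adjusted edgeR p 0.0899). Tyrobp, the adaptor DAP12, had 8.44, 6.53 and 3.55 CPM in WT mice and 5.38, 16.7 and 1.78 CPM in KO mice at 1 week, where the KO libraries held both the highest and the lowest value. At 1 month it had 21.1, 15.4 and 14.6 CPM in WT mice and 5.25, 9.38 and 9.41 CPM in KO mice. All KO libraries were lower (log2 fold change -1.08, SE 0.32, BH-adjusted edgeR p 0.0867).

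Both integrin members, neighbours on chromosome 7, were lower in every KO library at 1 month. Itgam encodes the alpha chain CD11b of a phagocyte integrin and had 6.95, 8.08 and 5.51 CPM in WT mice and 2.18, 4.44 and 3.64 CPM in KO mice (log2 fold change -0.99, SE 0.41, BH-adjusted edgeR p 0.188). Itgax encodes CD11c, found on dendritic cells and some macrophages, and had 25.9, 9.02 and 6.71 CPM in WT mice and 1.54, 3.78 and 4.25 CPM in KO mice. WT replicate 1 was far above the other libraries, and the log2 fold change was -2.02 (SE 0.55, BH-adjusted edgeR p 0.0790), and -1.31 (adjusted p 0.279) without that library. Itgax passed without WT replicate 3 or KO replicate 3, the libraries of batch 3, at -2.70 and -2.69 (adjusted p 0.00650 and 0.00685). At 1 week Itgax had 1.90, 1.95 and 1.32 CPM in WT mice and 1.92, 3.12 and 2.18 CPM in KO mice, and Itgam ran from 4.47 to 6.18 CPM in WT mice and from 4.99 to 21.2 CPM in KO mice. Both overlapped then.

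Among effector genes of phagocytes, Ncf1 encodes a cytosolic subunit (p47phox) of the phagocyte oxidase and had 21.6, 14.7 and 22.3 CPM in WT mice and 24.2, 12.4 and 8.71 CPM in KO mice at 1 week. At 1 month it had 51.0, 41.3 and 29.4 CPM in WT mice and 27.3, 27.6 and 24.9 CPM in KO mice, with the lowest WT library, of batch 3, just above the KO range. The log2 fold change was -0.57 (SE 0.22, BH-adjusted edgeR p 0.169). Lyz2, the lysozyme of macrophages and granulocytes, did not separate the genotypes: it ran from 0.812 to 5.47 CPM in WT mice and from 1.28 to 6.57 CPM in KO mice at 1 week, and from 0.842 to 18.9 and 1.41 to 7.28 CPM at 1 month. Its reads may also be shared with the close copy Lyz1. Cd68, a lysosomal glycoprotein of macrophages, had at most 31 counts, 0 in 2 libraries, and was not tested at either time.

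The lymphoid and mast cell members gave few counts. Of the 6 T cell genes, Cd3d had the highest mean CPM and was the 1 gene tested at either time, with 1.19, 0.573 and 0.711 CPM in WT mice and 1.79, 0.861 and 3.96 CPM in KO mice at 1 week (log2 fold change 1.39, SE 0.70, BH-adjusted edgeR p 0.387) and 4.21, 1.502 and 0.298 CPM in WT mice and 2.43, 3.13 and 1.82 CPM in KO mice at 1 month (0.55). The genotypes overlapped at both times. The signalling chain genes Cd3e and Cd3g had at most 21 and 4 counts, the co-receptor genes Cd4 and Cd8a at most 11 each, and the adhesion gene Cd2 at most 12. At 1 week Cd8a gave 3, 3 and 5 counts for WT and 0, 1 and 1 for KO, and at 1 month 4, 2 and 11 for WT and 2, 0 and 0 for KO, so that its KO libraries were lower in CPM each time at counts around the floor.

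B cell transcripts were at the edge of detection, with Cd79a, Cd79b and Ms4a1 (the gene of CD20) at most 5 counts each. Their sum was between 0 and 10 counts per library, and at 1 month it was 4, 1 and 4 counts in the KO libraries and 3, 8 and 9 in the WT libraries. These counts overlap, while after scaling the KO libraries lay just below WT, at most 0.607 CPM against at least 0.632 CPM. Nkg7, a protein of cytotoxic granules, had 1.90, 1.95 and 1.42 CPM in WT mice and 0.768, 0.323 and 0.396 CPM in KO mice at 1 week, or 14 to 17 counts against 2 to 6. All KO libraries were lower (log2 fold change -1.76, SE 0.58, BH-adjusted edgeR p 0.223). At 1 month Nkg7 had 5.69, 3.38 and 2.09 CPM in WT mice and 1.92, 2.96 and 0.910 CPM in KO mice, overlapping, with a log2 fold change of -0.95 (SE 0.48, BH-adjusted edgeR p 0.270).

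The granzyme genes Gzma and Gzmb, for proteases of cytotoxic granules, had at most 17 and 3 counts. Of the mast cell genes, Kit, the receptor for stem cell factor, ran from 0.594 to 1.83 CPM in WT mice and from 0.431 to 2.43 CPM in KO mice at 1 week, with a log2 fold change of 0.00. Cpa3, the mast cell carboxypeptidase, had at most 23 counts and was not tested in the fits by time. In all, 13 members were tested at neither time, since their counts were under the filter, so the fits by time say nothing of them at this depth.

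The calls at 1 month depended on single libraries and on the batch term. Without WT replicate 1, WT replicate 2, KO replicate 1 or KO replicate 2, edgeR's adjusted p of Csf1r was 0.119, 0.174, 0.155 and 0.177, and that of Clec4a1 was 0.0780, 0.165, 0.0733 and 0.128, so neither passed. With no batch term they were 0.426 and 0.341. Scaling by library size alone moved the median of all genes by 0.22 and the higher share of all calls from 45.0% to 81.3%, and Csf1r then missed the threshold (adjusted p 0.0532), while 17 of 20 members were lower there too. In batch 2 alone 7 members were called lower: Clec4a1, Csf1r, Fcer1g, Itgax, Laptm5, Ptprc and Tyrobp, where 12.2% of all genes were called.

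Within batches, 16 of the 20 members tested were lower in KO in batch 2 (52.6% of all genes), 16 in batch 3 (49.6%) and 14 in both (30.5%). The median log2 difference of the members was -1.01 in batch 2, with 2 against 2 libraries, and -0.51 in batch 3, with 1 against 1, where the medians of all genes were -0.04 and 0.00. Some members kept their difference in both batches: Clec4a1 had -1.43 and -0.97, Fcgr3 -1.01 and -1.02, Cd163 -0.81 and -0.90, and Spi1 -0.86 and -1.52. Others did not. Csf1r had -1.57 in batch 2 and -0.27 in batch 3, Ptprc -1.24 and 0.05, Laptm5 -1.14 and 0.07, and Fcer1g -1.27 and -0.14. The KO library of batch 3 is also the one with Xist, so genotype and sex cannot be told apart in any difference within batch 3, and a single library per genotype has no replicate check.

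**Figure D4:**
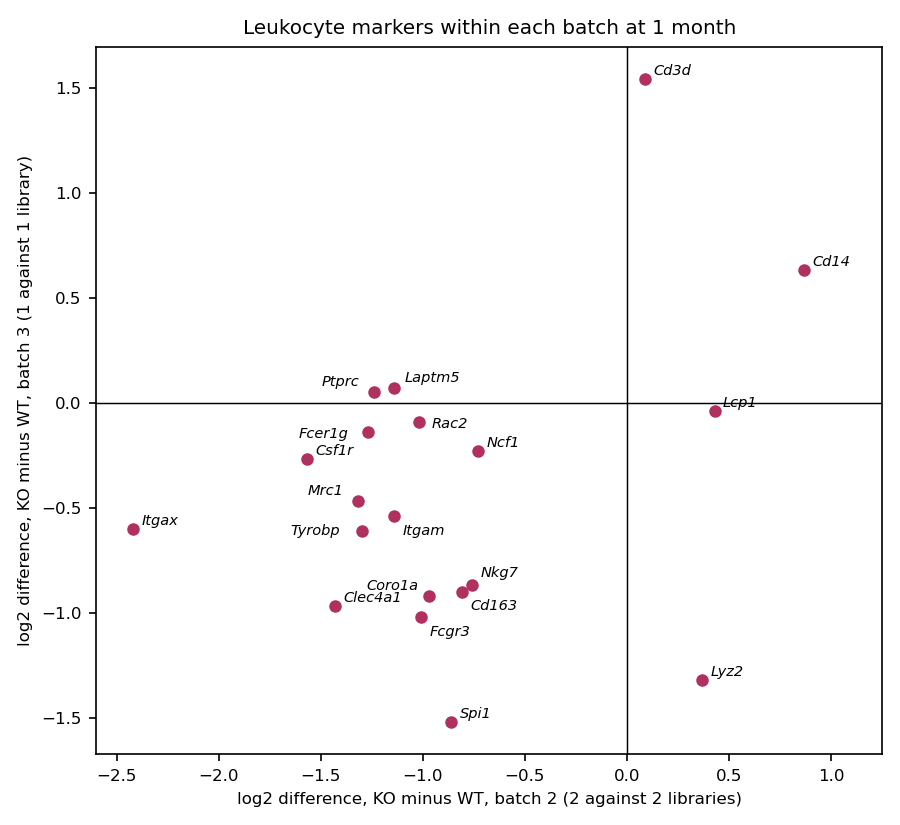
Log2 difference, KO minus WT, of the 20 members tested at 1 month within batch 2 (horizontal axis, 2 against 2 libraries) and within batch 3 (vertical axis, 1 against 1). The lower left quadrant holds the 14 members lower in both batches, and Ptprc (-1.24 and 0.05) and Laptm5 (-1.14 and 0.07) lie just above the horizontal line.

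Whether KO differed from WT by another amount at 1 month than at 1 week was tested in a fit of all 12 libraries. Of 26 members tested, 20 had a lower effect at 1 month than at 1 week, with a median difference of -1.38 on the log2 scale against -0.04 over all 13122 genes, of which 51.7% were below 0 and 48.3% above. By edgeR's quasi-likelihood test 0 members and 0.0% of all genes passed. An unadjusted p under 0.05 was reached by 14 members and by 19.9% of all genes, and DESeq2 called 6 members, Cd163, Clec4a1, Csf1r, Fcgr3 and Mrc1 with a lower effect at 1 month and Lcp1 with a higher one, where it called 4.27% of all genes. The smallest adjusted p by edgeR was that of Clec4a1, at a difference of -3.44 (SE 0.59, adjusted p 0.0879). Csf1r followed at -2.69 (SE 0.57, adjusted p 0.0990) and Cd163 at -3.06 (SE 0.67, adjusted p 0.104).

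The single libraries bore on this test as well. Without KO replicate 3 of 1 week, 4 members and 2.32% of all genes passed, with Clec4a1 at -3.02 (BH-adjusted edgeR p 0.0180) and Csf1r at -2.20 (adjusted p 0.0274), and without KO replicate 1 or 2 of 1 week 3 members passed, where 1.61% and 3.29% of all genes did. Of the 20 members tested at both times, 14 had a positive effect at 1 week and a negative one at 1 month, as had 30.1% of all genes. In 4 members, Csf1r, Mrc1, Fcgr3 and Clec4a1, the KO libraries were all above WT at 1 week and all below WT at 1 month. This held in TMM-scaled CPM and was a pattern of 0.898% of the 11919 genes. Sex differed between the genotypes at 1 week and batch between the times, and their part in this pattern was not tested.

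Further markers of the same lineages were read from the same fits. Of 16 other macrophage and monocyte genes, 12 were tested at 1 week, 10 of them higher and 0 called, with a median log2 fold change of 0.77. At 1 month 13 were tested, 13 were lower and 1 was called, with a median of -1.14. The called gene was Fcgr4, a further immunoglobulin G receptor gene, which had 11.4, 3.94 and 2.98 CPM in WT mice and 0.256, 0.165 and 0.607 CPM in KO mice. The KO libraries held at most 4 counts and the WT libraries at least 20. Fcgr4 fell by 3.96 on the log2 scale (SE 0.71, BH-adjusted edgeR p 0.0196), and missed the threshold without WT replicate 1 (0.0733), KO replicate 1 (0.0799) or KO replicate 2 (0.0725). It also missed it without the batch term (0.221) and in 1 fit of all 12 libraries (0.335).

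Ncf1 was set beside the 4 other subunits of the phagocyte oxidase, the enzyme that makes superoxide. At 1 week 4 of 4 were higher and 0 called, and at 1 month 3 of 4 were lower and 1 called. Cybb, the membrane-bound catalytic subunit, had 43.8, 46.4 and 30.1 CPM in WT mice and 18.4, 20.6 and 11.4 CPM in KO mice at 1 month. Every KO library was below every WT library, and Cybb fell by 1.26 on the log2 scale (SE 0.23, BH-adjusted edgeR p 0.0196). Its log2 difference was -1.19 within batch 2 and -1.37 within batch 3. It missed the threshold without WT replicate 2 (0.102) or KO replicate 1 (0.0711), without the batch term (0.372) and in 1 fit of all 12 libraries (0.508). Cyba, the other membrane subunit, had a log2 fold change of 0.29.

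Signalling proteins that act below the adaptor chains Tyrobp and Fcer1g were listed as well. They include phosphatases that can dampen the signal, Ptpn6 and Inpp5d. Of 12 such genes 10 were tested: 10 were higher at 1 week, with a median log2 fold change of 0.85, and 7 were lower at 1 month, with a median of -0.49. By edgeR's test 0 were called at either time, where 0.0627% and 2.22% of all genes were. An unadjusted p under 0.05 was reached by 2 of the 10 at 1 week (15.5% of all genes) and by 3 at 1 month (21.5%). Lyn, a kinase that starts this signal and the member of the list with the highest mean CPM, had log2 fold changes of 0.42 and 0.20. Syk, the kinase recruited by the adaptors and named after its values were seen, had log2 fold changes of 1.96 (SE 0.58, BH-adjusted edgeR p 0.188) and -0.95 (SE 0.43, BH-adjusted edgeR p 0.223). Markers of the other lineages were mostly below the filter. At 1 week 26 of 72 further leukocyte genes in the tables were tested and 18 were higher, and at 1 month 28 were tested and 25 lower, the macrophage genes above included, with 0 and 1 called.

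Transcripts of other cell types differed in level beside the leukocyte markers. At 1 week 8 of 8 fibroblast genes were higher in KO (sum 3408 to 5536 CPM in WT mice and 4524 to 9797 CPM in KO mice), as were 6 of 6 endothelial genes (173 to 186 against 286 to 544 CPM), 5 of 6 smooth muscle genes (108 to 284 against 333 to 1065 CPM) and 5 of 5 tested genes of dividing cells (15.9 to 16.8 against 96.3 to 656 CPM), with 0 called in these lists. At 1 month 5 of 8 fibroblast genes were lower (9562 to 14360 against 8042 to 10000 CPM) and 1 was called, Pdgfrb, which rose by 1.30 on the log2 scale (SE 0.24, BH-adjusted edgeR p 0.0218). Pdgfrb missed the threshold without WT replicate 1 (0.0743), WT replicate 2 (0.102), KO replicate 1 (0.0505) or KO replicate 2 (0.0673), without the batch term (0.637) and in 1 fit of all 12 libraries (0.474). Of 6 smooth muscle genes 4 were lower at 1 month and 0 called, with sums of 94.5 to 927 CPM in WT mice and 151 to 431.5 CPM in KO mice, and with median log2 differences of 1.07 within batch 2 and -3.10 within batch 3. The 3 tested genes of dividing cells were all lower then and 0 called (sums 12.5 to 60.4 CPM in WT mice and 12.7 to 18.1 CPM in KO mice). Endothelial genes were higher in 4 of 6 and 0 were called, with sums of 166 to 240 CPM in WT mice and 253 to 356 CPM in KO mice. None of the fibroblast, smooth muscle, endothelial or urothelial markers was at 0 throughout a group. Of 12 urothelial genes 8 were lower at 1 month and 1 was called, Krt20 of superficial cells, which fell by 1.76 on the log2 scale (SE 0.25, BH-adjusted edgeR p 0.00601). Krt20 missed the threshold without the batch term (0.221) and in 1 fit of all 12 libraries (0.199). The KO libraries of 1 month had lower macrophage sums and higher endothelial sums than WT, while the fibroblast and smooth muscle sums overlapped. Their urothelial sums were lower (12240 to 15530 CPM against 16070 to 31660 CPM in WT mice). The part of peeling depth and of other cell types in the leukocyte differences was not tested.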

How the data were processed

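RNA of peeled urothelium was measured in 12 mice with a directional kit that reads transcript 3′ ends, per the labels' protocols. The deposited tables hold raw counts per gene, 1 column per library, and the submitters' processing notes name Bowtie, TopHat, HTSeq, DESeq2 and the build mm10. Their roles are not given in the sources used here. Columns were matched through library names. For WT replicate 3 of 1 month the animal number in the title differs from that in the library name. No deposited column lacked a sample.

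The counts were fitted with edgeR 4.0.16 (quasi-likelihood test, robust, TMM scaling, default filter, R 4.3.3), two-sided. P-values were adjusted by Benjamini and Hochberg's method (BH) across every gene in a fit, and 0.05 was the threshold. The 6 libraries of 1 week and the 6 of 1 month were fitted apart, the latter with a batch covariate, and the interaction used all 12. CPM used 1 TMM scaling over the 12 libraries, and differences within a batch are log2(CPM + 0.5). No 2 replicates agreed within sampling noise. The floor of 3 counts covers counting error only. The fits were tested on simulated data.

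Members and lists were chosen with earlier results of these data known, although the rule for members uses no measured value. The genes given in most detail were members called, members whose genotypes did not overlap and the highest member of each lineage. Of the other lists they were called genes, in some lists the gene with the highest mean CPM, and a few others. Many of these genes have values per library, and the rest have ranges, counts or fold changes. Some genes of these lists are not reported here. Alternatives were other scalings and filters, DESeq2 1.42.0, non-robust dispersions, other designs and leaving out each library. Gene positions come from GENCODE M21 (GRCm38), and promoters from RefSeq. A planned search of protein sequences was not made, and promoters of 9 members were not analysed here.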

Additional observations from a re-analysis of the deposited data

How the results depend on the processing

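The number of all genes called at 1 week was 8, and it was 62 with no filter on low counts, 883 under DESeq2, 553 in 1 fit of all 12 libraries and 0 to 320 when 1 library was left out. The members called then were 0, and 4 under DESeq2, 2 in the fit of 12 and 0 to 0 when 1 library was left out. At 1 month 269 genes and 2 members were called, against 561 and 1 with scaling by library size, 1276 and 7 with no filter, 731 and 4 under DESeq2, 0 and 0 without the batch covariate (919 genes had an unadjusted p under 0.05), 1474 and 7 in batch 2 alone, 0 and 0 in the fit of 12, and 45 to 1522 and 0 to 7 with 1 library left out. Without the robust option 1 member was called. In the interaction, with 0 genes and 0 members called, the numbers were 137 and 3 with no filter, 836 and 6 under DESeq2, 15 genes in batch 2 alone, and 0 to 440 and 0 to 4 with 1 library left out. Scaling by library size moved the higher share of calls at 1 week from 25.0% to 37.5%, of 8 genes each. Of 458 alternative values of single genes, 387 kept direction and side of the threshold, 33 came to pass it, 31 no longer passed and 7 changed sign. Those 7 were all of Kit at 1 week, at 0.00 in the reported fit: -0.01 with size factors as in DESeq2, -0.04 with library size, -0.05 with no filter, -0.02 under DESeq2, -0.03 in the fit of 12, and -0.95 to 0.41 with 1 library left out. The cause of these shifts was not tested. With 3 libraries a group, the spread of 1 week (biological coefficient of variation 44.4%, against 24.2% at 1 month) and the counts of the lymphoid genes limit what could be seen. No paired analysis was possible because the labels carry no replicate numbers, so numbers given in accession order pair no animals.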

Other observations

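Tpsb2, a tryptase of mast cells, had 0.951, 1.03 and 0.711 CPM in WT mice and 5.12, 3.34 and 17.0 CPM in KO mice at 1 week, and each KO library was above each WT library (log2 fold change 3.23, SE 0.73, BH-adjusted edgeR p 0.127). At 1 month it overlapped between the genotypes, with a log2 fold change of -0.37. Cpa3 and Kit, the mast cell members, did not show this separation at 1 week. Cxcr2, a chemokine receptor of neutrophils, had log2 fold changes of -1.14 at 1 week (BH-adjusted edgeR p 0.236) and 0.80 at 1 month (BH-adjusted edgeR p 0.231). Of its list, 2 of 3 tested genes were higher at 1 week (median log2 fold change 0.21), and at 1 month 1 of 2 was higher. Some other neutrophil genes gave few counts, with at most 20 for S100a8 and 16 for Mpo, and 0 in every library for Elane.

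Among dendritic and lymphoid genes beside the members, Irf8, a transcription factor of dendritic and other myeloid cells, passed at neither time, with log2 fold changes of -0.91 and -0.22. Of 11 dendritic genes beside Itgax, 5 were tested at each time and 0 called. At 1 week 2 of these were higher and 3 lower (median -0.71). At 1 month 1 was higher and 4 were lower, with a median of -0.10, and 0 separated the genotypes as Itgax did. Il7r, the interleukin 7 receptor of T cells, had 1.94 (BH-adjusted edgeR p 0.266) and -0.24. The T cell genes beside the members were split at 1 week, with 2 of 4 tested higher and a median of 0.06, and at 1 month 4 of 5 were lower, with a median of -0.25. Ctsw, a cathepsin of cytotoxic cells, had log2 fold changes of 0.29 and -0.19. Cr2, complement receptor 2 of B cells, had 4.21, 2.82 and 3.13 CPM in WT mice and 0.128, 0.823 and 0.759 CPM in KO mice at 1 month, a log2 fold change of -2.57 (BH-adjusted edgeR p 0.0514). Its KO libraries were all below its WT libraries, while the B cell members Cd79a, Cd79b and Ms4a1 stayed at or under 5 counts.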
